A study of Mus musculus with 2 samples.

Results

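The alpha-globin locus of mouse chromosome 11 was examined for CTCF binding in embryonic stem cells (ESCs). Its members are the embryonic gene Hba-x and the adult genes Hba-a1 and Hba-a2, 3 of the 37310 genes of the GENCODE M1 annotation. They were chosen by name and position, and no tag was used to choose them. The region runs from the first to the last of these genes with 150 kb added on each side, that is chr11:32026400-32347301 of mm9, 320.902 kb in all. It overlaps 12 annotated genes and holds 18 of the 33788 deposited CTCF peaks. The nearest summits left out lie 16.608 kb beyond the left edge (score 89.69) and 3.089 kb beyond the right edge (score 199.55), while site 1 and site 18, the outermost summits inside, lie 143.953 kb to the left and 66.576 kb to the right of the Hba-x start.

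Both libraries came from 1 line of R1/E mouse ESCs, pluripotent cells grown here on gelatine with LIF and serum. For both, the cells were crosslinked with 1% formaldehyde and the chromatin was sheared to fragments of 500 bp. The line carries a bacterial artificial chromosome with the CTCF gene fused to a GFP-containing tag, so the tagged protein is made beside the cell's own CTCF, and only tagged CTCF is pulled down. One library was made with an anti-GFP antibody (CTCF, 8391191 tags) and 1 with goat IgG (7988889 tags). The labels of the IgG library name both an isotype control and input DNA. It was taken as the control ChIP here, and all ratios are ratios to this library. With 1 library per antibody, every interval and p-value measures counting error alone and says nothing about differences among cultures.

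CTCF is a zinc finger protein that binds a long, directional DNA motif and stops the movement of cohesin along chromatin, and loops form most often between motifs that point toward each other. The alpha-globin genes encode the alpha-like chains of haemoglobin and are transcribed at high level in red cell precursors, from enhancers that lie upstream, several of them within introns of the neighbouring housekeeping gene Nprl3. Outside the red cell lineage these genes are kept silent. The adult genes arose by duplication and each is followed by a theta-globin gene (Hbq1b and Hbq1a), an alpha-like gene without a settled role.

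The motifs at the sites on which the results turn are given here, since their direction and their near identity between the duplicated copies are used throughout. Each line holds a match to the CTCF matrix (consensus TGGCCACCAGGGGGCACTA) in capitals with 5 flanking bases on each side in lower case, written 5′ to 3′ on the strand of the motif. The sequence is that of the NCBI m37 assembly (mm9), and sites are numbered 1 to 18 from left to right. The names give the strand and the position of the match.
Site 2, plus strand, chr11:32041211-32041229: ctttcCGTCCACCAGGGGGAGTGAgtgag
Site 8, plus strand, chr11:32117029-32117047: ataaaTGACCACGAGGTGGCGCCAactgc
Site 10, minus strand, chr11:32138653-32138671: ccctgAGGCCACCAGAGGGTAGCAgaggc
Site 12, before Hbq1b, minus strand, chr11:32186930-32186948: acaagAGGCCGCCAGGGGGCGCTGcatcg
Site 13, before Hbq1a, minus strand, chr11:32200035-32200053: acaagAGGCCGCCAGGGGGCGCTGcatcg
Site 15, minus strand, chr11:32221391-32221409: tatagTGGCCTGCAGGGGGCGCCCcagag
Site 17, minus strand, chr11:32241290-32241308: caatcTCTCCTGCAGGTGGCGCCCttccg
Site 18, plus strand, chr11:32242903-32242921: cacacCAGCCTGCAGAGGGCGCCCtcagt
Site 18, plus strand, chr11:32242939-32242957: tacacCAGCCTGCAGGGGGCACCAtggag
Site 18, plus strand, chr11:32243100-32243118: tacagTGGACAGAAGAGGGCGCCAgatcc

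The starts of Hba-x, Hba-a1 and Hba-a2 had no summit of the CTCF peak list within 1 kb, and none of these starts held more CTCF than IgG tags by the test used here. Within 1 kb of the Hba-x start (gene at chr11:32176400-32178116, plus strand, ENSMUSG00000055609.2) lay 9 CTCF and 12 IgG tags. Scaled to equal depth, this is a ratio of 0.714 (exact 95% interval 0.266 to 1.85; adjusted p = 0.869, exact binomial test, two-sided, with Benjamini-Hochberg adjustment over all protein-coding gene starts). Since 96.7% of the 35-base positions in that window occur at 1 place in the genome, the window was readable. With 500 bp on each side the direction turned, with 7 CTCF and 3 IgG tags (2.22, 0.507 to 13.3; adjusted p = 0.954, exact binomial test), so that neither window gave a ratio distinct from 1.

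The starts of the adult genes were read less well. Hba-a1 (chr11:32183511-32184465, plus strand, ENSMUSG00000069919.6) had 6 CTCF and 3 IgG tags, a ratio of 1.90 (0.407 to 11.8; adjusted p = 0.859, exact binomial test), with 26.6% of positions unique. Hba-a2 (chr11:32196489-32197301, plus strand, ENSMUSG00000069917.6) had 1 CTCF and 4 IgG tags, a ratio of 0.238 (0.00483 to 2.41; adjusted p = 0.611, exact binomial test), with 20.2% of positions unique. At both, the interval runs from well below 1 to above 2, so that a difference was not detectable at this depth in either direction. Summed over the 3 starts, 16 CTCF tags stood against 19 IgG tags (ratio 0.802, 0.386 to 1.65; p = 0.613, exact binomial test). With 500 bp on each side the summed ratio was 2.14 (0.598 to 9.52; p = 0.269, exact binomial test), and with 2 kb it was 1.00 (0.633 to 1.58), again without a difference past the threshold.

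In comparison, 10.4% of the 21619 protein-coding gene starts with tags held more CTCF than IgG tags (adjusted p of at most 0.05 and a ratio of at least 2), 0.241% held more IgG tags, and 7.91% of 22367 starts had a CTCF summit within 1 kb. Against shares of this size, 0 of 3 members is near the background. The nearest summits lay 9372 bp downstream of the Hba-x start, 2261 bp downstream of the Hba-a1 start and 3458 bp downstream of the Hba-a2 start. Over all protein-coding genes the median distance to the nearest summit was 15553 bp (quartiles 5276 and 44675 bp), so all 3 members lie nearer to a CTCF summit than the median gene.

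The gene bodies told the same difference in readability. Hba-x held 8 CTCF and 4 IgG tags over its 1717 bp, of which 96.2% are unique. The body of Hba-a1 held 1 CTCF tag and no IgG tag and that of Hba-a2 held none of either library, with 3.66% and 4.31% of positions unique. In Hba-a1 94.97% and in Hba-a2 94.1% of the positions have exactly 2 places in the genome. The coding sequences of both are 429 bases long and differ at 1 base (99.8% identical), whereas Hba-x, with 471 coding bases, is 57.1% identical to Hba-a1. Of the CTCF tags on chromosome 11, 99.9% lay at unique positions, so the deposited tags report almost nothing on the bodies of the adult genes.

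**Figure D1:**
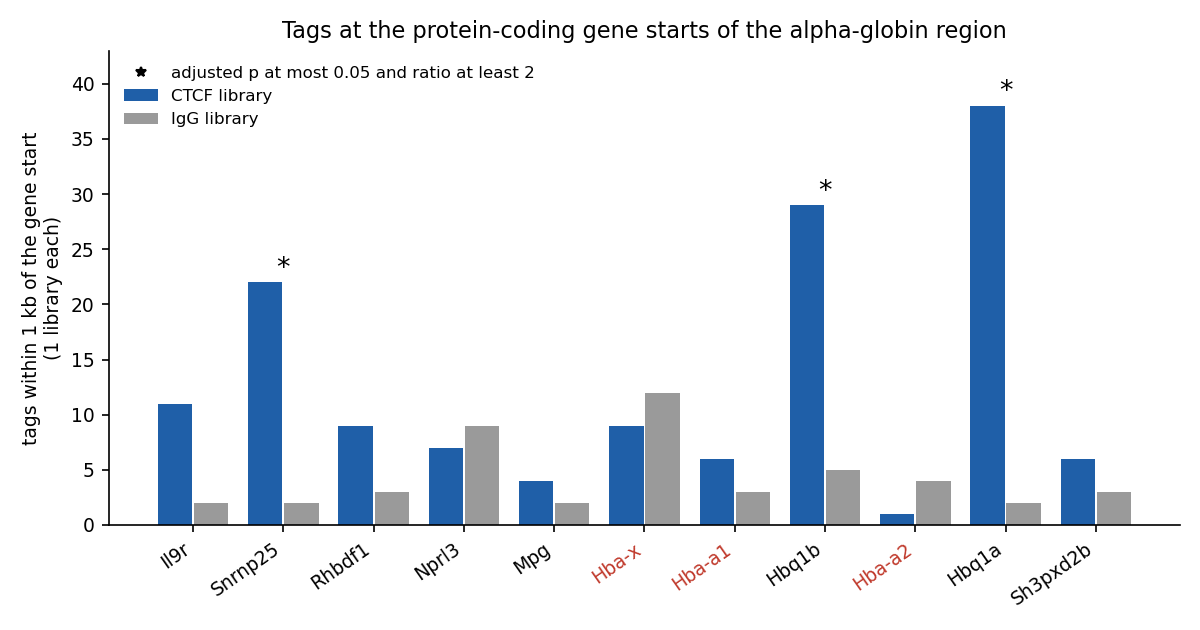
Tags within 1 kb of the 11 protein-coding gene starts of the region (y axis, tag count; x axis, genes from left to right along the chromosome), in the CTCF library (blue) and the IgG library (grey), 1 library each. Hba-x, Hba-a1 and Hba-a2 (red names) stay at 1 to 9 CTCF tags, while Snrnp25, Hbq1b and Hbq1a, with 22, 29 and 38 CTCF tags, pass the threshold marked by a star.

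The other genes of the region held more CTCF than IgG tags in the sum. Over their 8 protein-coding starts lay 126 CTCF and 28 IgG tags (ratio 4.28, 2.83 to 6.70, p = 4.34e-15, exact binomial test). Of the 8 starts 3 were called, against 10.4% of all protein-coding starts with tags. Most of the CTCF tags lay at these 3, so the sum does not describe each of the 8 genes. The windows of Hbq1b and Hbq1a each hold a deposited summit, called from the same tags. Hbq1a had 38 CTCF and 2 IgG tags (ratio 18.1, 4.67 to 155; adjusted p = 2.59e-07, exact binomial test), and Hbq1b had 29 and 5 tags (5.52, 2.11 to 18.3; adjusted p = 0.00098). Snrnp25, a protein of the minor spliceosome, had 22 and 2 tags (10.5, 2.57 to 91.9; adjusted p = 0.000894, exact binomial test). The last has its nearest summit 11595 bp away, and with 500 bp on each side it no longer passed (adjusted p = 0.0629, exact binomial test).

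The remaining genes did not pass. Il9r, the interleukin-9 receptor, had 11 CTCF and 2 IgG tags, and Rhbdf1, an inactive rhomboid protein, had 9 and 3 tags. With 2 kb on each side both passed (adjusted p = 0.0299 and 0.0108, exact binomial test). Mpg, a DNA glycosylase of base excision repair, had 4 and 2 tags, Nprl3, a subunit of a complex that restrains mTORC1, had 7 and 9 tags, and Sh3pxd2b, a scaffold protein of podosomes, had 6 and 3 tags. The ratios of these turned to the other side of 1 in another window, to 4.76 for Nprl3 with 500 bp and to 0.816 for Mpg and 0.952 for Sh3pxd2b with 2 kb on each side, none past the threshold. The pseudogene Gm12109 had 6 and 5 tags and was not in the test.

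**Figure D2:**
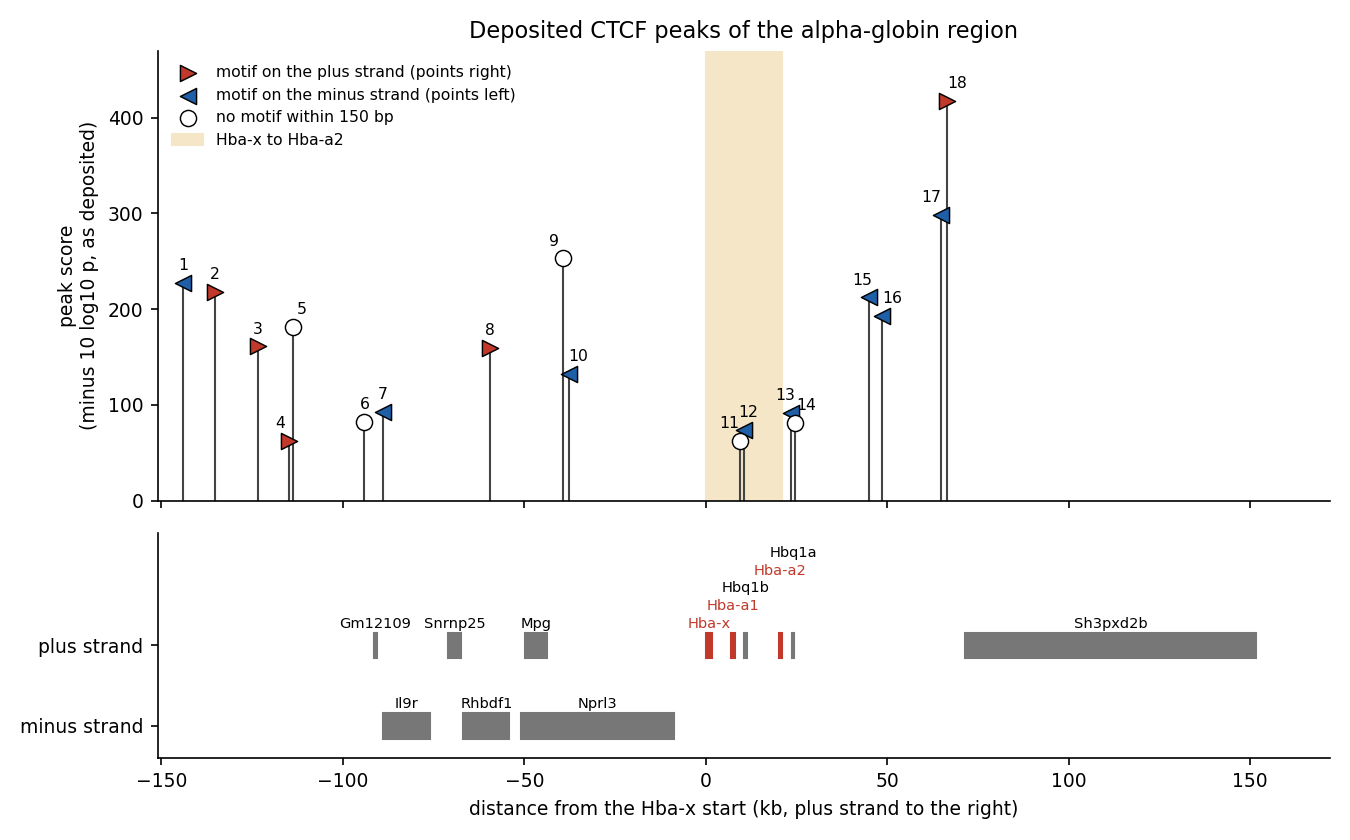
Deposited CTCF peaks of the region by score (y axis, minus 10 times log10 p) and distance from the Hba-x start (x axis, kb), with triangles pointing in the direction of the best motif within 150 bp of the summit and open circles where no motif passed; below, the annotated genes by strand. Sites 11 to 14, the nearest to the globin genes, score 62.7 to 92.03, site 10 (132.82) stands to their left and site 15 (212.41) to their right, and no peak lies between site 18 and the right edge.

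CTCF peaks were dense around the members, at 5.61 per 100 kb, against 2.31 on chromosome 11 and 1.32 in the genome. When the chromosomes were laid out in windows of the same length, 2.04% of 7834 windows in the genome and 7.90% of 367 on chromosome 11 held as many summits, with medians of 3 and 6. The beta-globin region on chromosome 7, made by the same rule, held 2 summits (0.587 per 100 kb). It was read less well, with 80.5% of positions unique against 93.3% in the alpha-globin region. In the alpha-globin region 10 summits lay to the left of the genes, 2 between Hba-x and Hba-a2 and 6 to the right. Their scores ranged from 62.61 to 417.65 with a median of 160.62, against 119.75 on chromosome 11, and the median height of 13 tags was that of chromosome 11. As deposited, the score is minus 10 times the log10 of the MACS p-value, and the height is the number of tags piled up at the summit.

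Site 18, in the intergenic stretch before Sh3pxd2b, was the tallest of the 18. Its summit (chr11:32242976) has a score of 417.65 and a height of 44 tags, and 98.2% of all deposited peaks score lower. Within 150 bp lay 46 CTCF and 2 IgG tags (ratio 21.9, 5.73 to 186). All 3 motifs there are on the plus strand and point away from the globin genes. Site 17, 1601 bp to the left, has a score of 298.67 and a height of 16 tags, with 19 CTCF tags and no IgG tag within 150 bp. This was 6.03-fold higher when the IgG library is set to a floor of 3 counts (lower limit from the counts without the floor 4.44). The motif of site 17 is on the minus strand, so that the motifs of the outermost pair of sites on the right point away from each other.

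Moving inward on the right, site 16 (48.458 kb from the Hba-x start, score 193.13, height 14) had 18 CTCF tags and no IgG tag. This was 5.71-fold higher against the same floor (lower limit 4.19). Site 15 (45.068 kb, score 212.41, height 20) had 22 and 3 tags (6.98, 2.10 to 36.4). Its motif, at a p of 9.29e-09, is the strongest match of the region to the matrix, and a second, weaker match on the same strand lies beside it. Sites 15, 16 and 17 thus all carry motifs on the minus strand, pointing toward the globin genes.

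On the left, the nearest sites to the members lie in Nprl3. Site 10, in an intron 37.622 kb from the Hba-x start, has a score of 132.82 and a height of 9 tags, with 10 CTCF tags and 1 IgG tag (9.52, 1.35 to 413) and a motif on the minus strand. Site 9, 39.386 kb away in an annotated exon outside the coding part, has a score of 253.46 and a height of 14 tags. It had 18 CTCF tags and no IgG tag, 5.71-fold higher against the floor (lower limit 4.19), and no motif within 150 bp at the threshold of 1e-05. A match on the plus strand lies 7 bp from its summit and misses that threshold at a p of 1.05e-05.

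Farther out, site 8 lies in an exon of Rhbdf1 outside the coding part (59.39 kb from the Hba-x start, score 159.92, height 11). It had 12 CTCF tags and no IgG tag, 3.81-fold higher against the floor (lower limit 2.65), and a motif on the plus strand 28 bp from the summit. Sites 1, 2, 3 and 5, between 113.738 and 143.953 kb to the left, have scores of 227.5, 218.19, 161.32 and 181.76 and heights of 26, 24, 22 and 14 tags. They had 28, 28, 25 and 15 CTCF tags without an IgG tag, 8.89-, 8.89-, 7.93- and 4.76-fold higher against the floor (lower limits 6.76, 6.76, 5.99 and 3.41). Sites 2 and 3 carry a motif on the plus strand, site 1 one on the minus strand, and site 5 has one on the minus strand 298 bp from its summit, inside the peak. The remaining sites on the left (4, 6 and 7) score from 62.61 to 93 with 9 to 13 CTCF tags and 0 to 4 IgG tags.

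Summed over the 18 summits, 318 CTCF tags stood against 17 IgG tags within 150 bp, a ratio of 17.8 (10.9 to 30.96), and 10 summits had no IgG tag. These tags are those from which the peaks were called, so the ratio is a description. Over the summits by side, the ratio was 26.8 (12.1 to 74.1) on the left, 5.00 (1.69 to 20.0) at the sites between Hba-x and Hba-a2, and 17.4 (8.21 to 44.2) on the right. The intervals of the left and the middle overlap.

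A motif at a p of at most 1e-05 lay within 150 bp of 13 of the 18 summits, 72.2% (exact 95% interval 46.5 to 90.3), against 73.6% of 33756 summits on the assembled chromosomes. Of these 13, 5 are on the plus strand and 8 on the minus strand. To the left of the genes the directions were mixed, with 4 plus and 3 minus, and from site 10 to site 17 each of the 6 summits with a motif within 150 bp had it on the minus strand. The peak of site 11, within this run, holds a match on the plus strand at a p of 2.57e-07. It lies 281 bp from the summit and is not counted, so the uniform direction depends on the limit of 150 bp. A plus-strand motif on the left points toward the globin genes by its place and strand alone. By their best motifs, sites 2, 3, 4 and 8 did so. Sites 1, 7 and 10 on the left and site 18 on the right point away from the genes. How often sites are arranged in this way elsewhere in the genome was not counted.

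At the gene starts themselves, the 300 bases from 250 before to 50 after the start held a CTCF motif for 7.10% of 22367 protein-coding genes. Hba-x, Hba-a1 and Hba-a2 held none there, and none at a p of 1e-04 either. Of the 11 protein-coding genes of the region, 2 held a motif there at 1e-05, Hbq1b and Hbq1a, and Il9r held one only at 1e-04.

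The summits nearest to the adult genes fall on a duplicated unit. Alignment of both copies gave 4 blocks of 619 to 2348 bp with 82.4% to 96.3% identity, about 13 kb apart, which hold Hba-a1 with Hbq1b and Hba-a2 with Hbq1a. Each theta gene is preceded by the same 19-base motif, printed above for sites 12 and 13, whose centre lies 26 bp before the Hbq1b start and 25 bp before the Hbq1a start, on the strand opposite to the gene. Around it the copies are identical over 105 bp in a row and over 97% of 300 bp. Its p of 2.75e-08 makes it one of the 14 matches of the region at or below 1e-07, of which 10 lie in peaks.

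A pair of peaks was called at each theta gene. At copy 1, site 11 (9.372 kb from the Hba-x start, score 62.7, height 10) and site 12 (10.473 kb, score 74.18, height 9) had 10 and 11 CTCF tags with 2 IgG tags each (4.76, 1.01 to 44.7, and 5.24, 1.14 to 48.6). At copy 2, site 13 (23.547 kb, score 92.03, height 11) had 12 CTCF tags and no IgG tag, 3.81-fold higher against the floor (lower limit 2.65). Site 14 (24.727 kb, score 81.47, height 11) had 11 and 2 tags (5.24, 1.14 to 48.6). All 4 score below the median of chromosome 11. Between the peaks of a pair lie 449 bp in copy 1 and 418 bp in copy 2, where 28.3% and 45.0% of positions are unique.

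The second peak of the pair does not lie at the same place at both genes. Site 11 lies before the shared motif, toward Hba-a1, within the aligned sequence. Site 14 lies after it, past the end of Hbq1a and outside the duplicated unit, whose alignment ends 788 bp after the motif in copy 1 and 792 bp after it in copy 2. Within the aligned blocks, up to 2 kb before the motif, copy 1 held 44 CTCF and 8 IgG tags (5.24, 2.44 to 12.9) and copy 2 held 41 and 7 (5.58, 2.48 to 14.7). Per kb of unique positions the CTCF tags of copy 2 were 0.945 times those of copy 1 (0.603 to 1.48; p = 0.829, exact binomial test), so that a difference between the copies was not detectable at this depth.

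The sequence that follows the unit is not shared, and its tags are given side by side without a comparison of copies. From 1 to 2 kb after the motif lay 5 CTCF and 4 IgG tags behind Hbq1b (84.0% of positions unique) and 18 and 7 behind Hbq1a (97.7% unique), where site 14 lies. With 2 kb on each side of the motif, unshared sequence included, there were 53 CTCF and 12 IgG tags at Hbq1b (4.205, 2.22 to 8.65) and 75 and 15 at Hbq1a (4.76, 2.71 to 8.92).

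**Figure D3:**
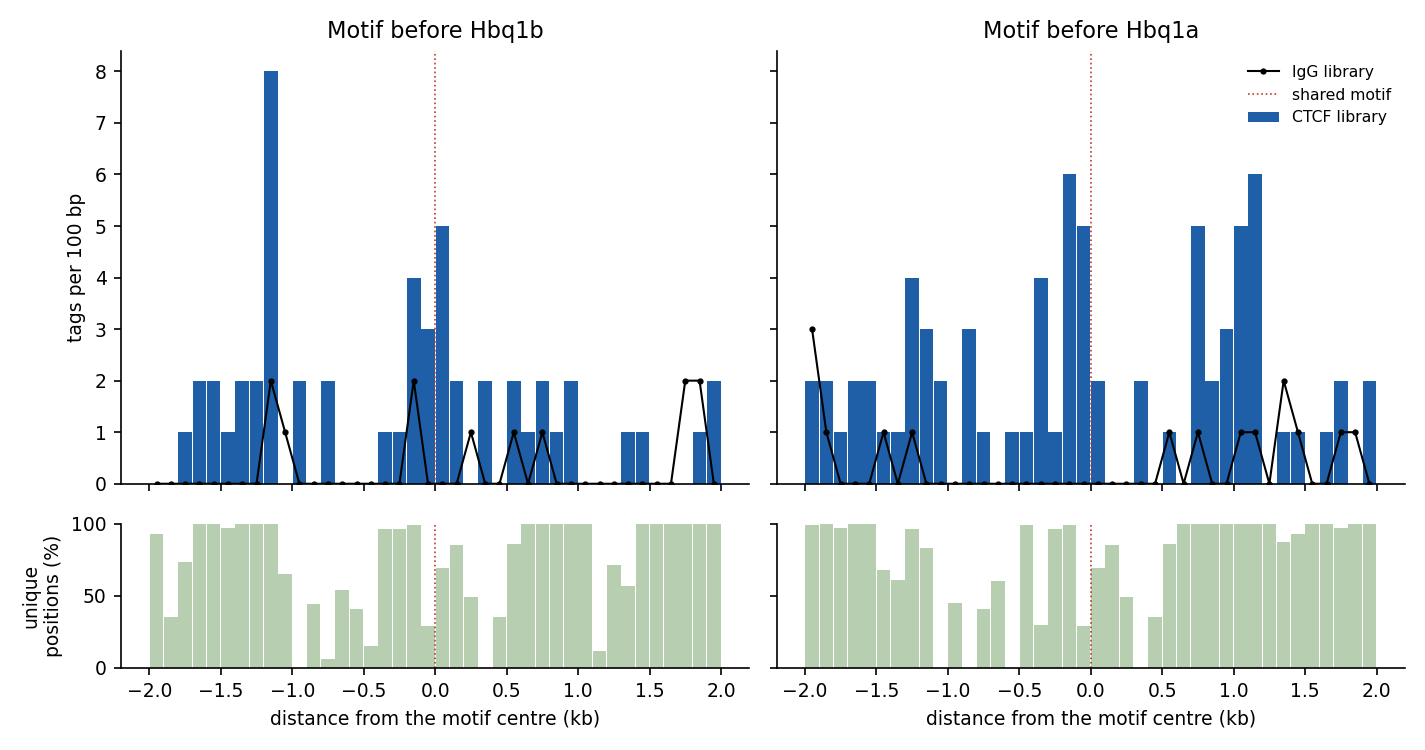
CTCF tags (blue bars) and IgG tags (black line) per 100 bp around the motif before Hbq1b (left) and Hbq1a (right), with the share of unique positions below (%); the x axis is the distance from the motif centre in kb along the plus strand, 1 library each. Tags of both copies gather around the motif and before it, 61.1% of positions within 150 bp of it are unique, and the right panel has a further group about 1 kb after the motif, where the copies are no longer aligned. Shares count unmoved word starts and tags are moved by 92 bp, so a bin with a share of 0% can hold tags.

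From the first base of Hba-x to the last of Hba-a2, 20.902 kb, lay 111 CTCF tags, 5.31 per kb (95% interval 4.37 to 6.40), and 58 IgG tags, 2.77 per kb (2.11 to 3.59). The corresponding levels on chromosome 11 were 4.39 and 3.57 per kb. The ratio of 1.82 (1.31 to 2.55) fell to 1.401 (0.976 to 2.03) once the peaks of sites 11 and 12 were left out. Of the positions in this stretch 75.3% are unique, and per kb of unique positions the levels were 7.05 and 3.68. From the Nprl3 start to the Hba-a1 start, across Hba-x, the ratio was 0.855 (0.579 to 1.26) with 53 CTCF and 59 IgG tags.

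The widest gap between neighbouring summits of the region spans 46.994 kb from site 10 in Nprl3 to site 11, and it covers the upstream part of Nprl3, Hba-x and Hba-a1. With peaks left out it held 214 CTCF and 180 IgG tags (1.13, 0.924 to 1.39). From site 18 to the right edge, 104.325 kb without a summit and most of it Sh3pxd2b, lay 423 and 389 tags (1.04, 0.89997 to 1.19). The median gap between neighbouring summits of the genome was 25.632 kb, and 66.0% of all gaps are shorter than that from site 10 to site 11. The gap from site 18 to the next summit, beyond the edge, is 107.414 kb, longer than 83.6% of all gaps.

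Elsewhere in the region, CTCF tags exceeded IgG tags outside the peaks too. With peaks left out, the whole region held 1496 CTCF and 995 IgG tags (1.43, 1.32 to 1.55), against a ratio of 1.01 on chromosome 11 and 0.898 over the assembled chromosomes counted in the same way. Between sites 2 and 3 the ratio was 3.02 (1.97 to 4.76), between sites 7 and 8 it was 2.34 (1.70 to 3.28) and between sites 16 and 17 it was 2.37 (1.63 to 3.49). The CTCF and IgG tags per kb of these stretches were 8.41 and 2.65, 4.68 and 1.90, and 6.54 and 2.63. Chromosome 11, peaks included, had 4.39 and 3.57, so each stretch had a lower IgG level than the chromosome. With peaks left out, the beta-globin region had a ratio of 0.912 (0.823 to 1.01). GC content was 47.7% in the alpha-globin region, 38.2% in the beta-globin region and 43.8% on chromosome 11, and its part in these ratios was not tested.

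**Figure D4:**
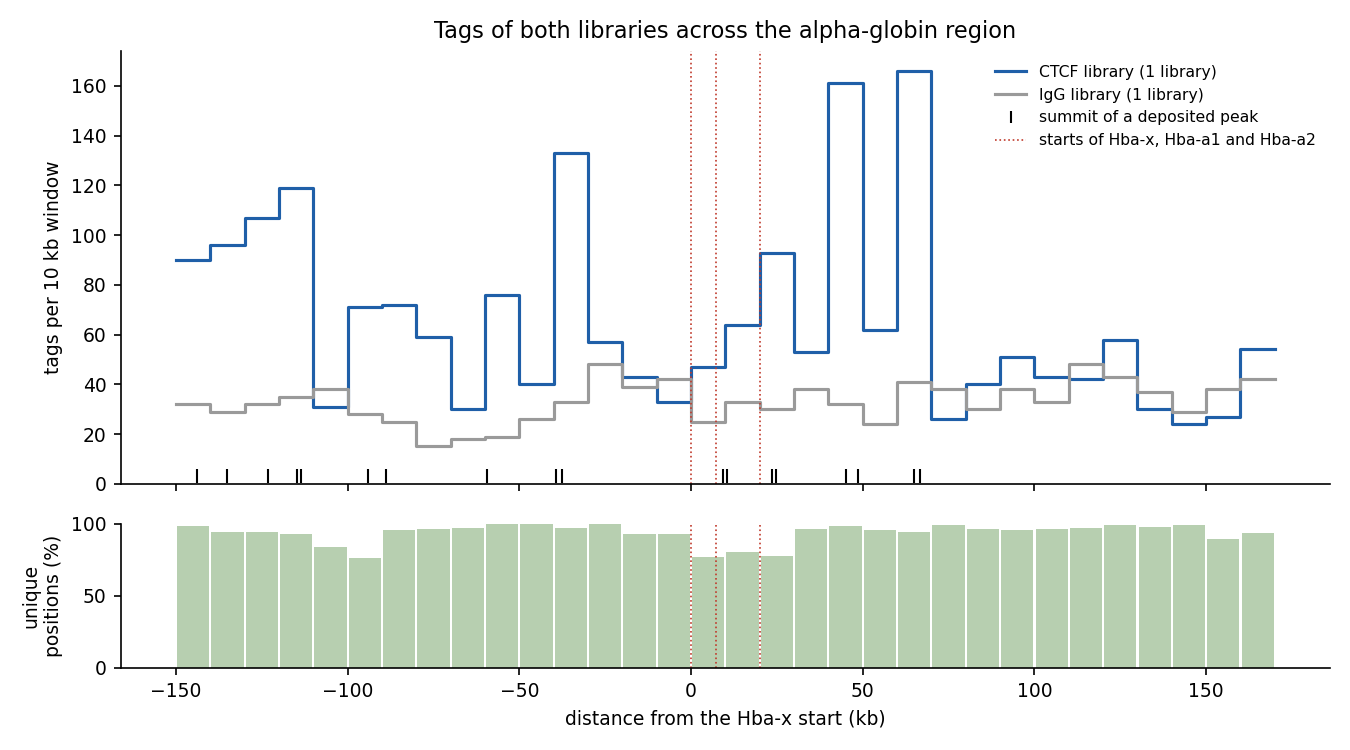
Tags per 10 kb window in the CTCF library (blue) and the IgG library (grey), 1 library each, against the distance from the Hba-x start (kb), with summits as ticks and the starts of Hba-x, Hba-a1 and Hba-a2 as dotted lines; below, the share of unique positions (%). CTCF tags range from 24 to 166 per window and IgG tags from 15 to 48, and the lines run together just left of Hba-x and from 70 kb onward.

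A scan of 1 kb windows that did not start from the deposited peaks overlapped most of the peaks. It used the libraries from which the peaks were called, so this overlap is a description and no independent support. Of 319 windows with tags, 20 (6.27%) held more CTCF than IgG tags, against 1.23% of all such windows of the genome, and none held more IgG tags (0.0136% in the genome). Of the 20, 19 overlap a deposited peak, and 15 of the 18 summits fall in one. The exception, chr11:32050001-32051000, had 12 CTCF tags and no IgG tag (adjusted p = 0.0434, exact binomial test over all windows). Against the floor of 3 counts this window was 3.81-fold higher, with a lower limit of 2.65. No window over Hba-x, Hba-a1 or Hba-a2 was among the 20. In the bodies of Hba-a1 and Hba-a2 only 3.66% and 4.31% of positions are unique, so windows there could hardly collect tags. For the adult genes this absence is therefore no result. The nearest called windows were chr11:32185001-32186000 with 20 and 3 tags (6.35, 1.88 to 33.4) and chr11:32199001-32200000 with 19 and 0 tags (6.03-fold higher against the floor, lower limit 4.44).

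The region holds 81 CTCF motifs at a p of at most 1e-05, of which 20 lie in deposited peaks, 24.7% against 15.3% of 17525 on chromosome 11. At a p of at most 1e-07, 10 of 14 lie in peaks, 71.4% against 57.8%. The motifs in peaks had 303 CTCF and 11 IgG tags within 150 bp (26.2, 14.4 to 53.1). The peaks were called from these tags, so the contrast with motifs outside them is a description. The other 61 had 89 and 42 tags with all peaks left out (2.02, 1.38 to 2.99), and each had between 0 and 7 CTCF tags. Of these 61, 50 have at least 50% unique positions around them, and they gave 84 and 41 tags (1.95, 1.33 to 2.91), an interval that includes the 1.43 of the region outside its peaks.

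Among the motifs are 23 with the core CCAGAAGAGGG, searched on both strands within the matches. Of these, 5 lie in peaks (21.7%, against 11.4% of 5818 on chromosome 11). The core was taken from the match at site 7, which lies in a peak, so that this match is among the 5 by construction. Motifs without the core also lay in peaks more often here than on chromosome 11 (25.9% against 17.3%). The higher share in the region is thus not particular to the core. The 18 motifs with the core outside the peaks had 41 CTCF and 8 IgG tags (4.88, 2.26 to 12.1). The 43 motifs outside without the core had 51 and 34 (1.43, 0.907 to 2.27). The difference between these sets was not tested. The lines below show such matches inside and outside the peaks, because the same 19 bases occur in both settings.
Site 7, in a peak, minus strand, chr11:32087456-32087474: cttggAGGCCAGAAGAGGGCATCAgatct
Intron of Sh3pxd2b, in no peak, minus strand, chr11:32251668-32251686: tgtggAGGCCAGAAGAGGGCATCAgatcc
Between sites 16 and 17, in no peak, minus strand, chr11:32234281-32234299: tgtggAGTCCAGAAGAGGGCGCTGacacc
Copy 1, in the peak of site 11, plus strand, chr11:32186044-32186062: cagacAAACCAGAAGAGGGCATCAgatag
Copy 2, in no peak, plus strand, chr11:32199067-32199085: cagacAAACCAGAAGAGGGCATCAgatag

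The first pair has the same 19 bases. Within 150 bp lay 13 CTCF tags and no IgG tag at site 7 (4.13-fold higher against the floor of 3 counts, lower limit 2.90). In the intron of Sh3pxd2b lay 4 CTCF tags and 1 IgG tag (3.81, 0.377 to 188). Unique positions made up 98.0% and 93.4% there. The match between sites 16 and 17 is the strongest one outside the peaks, at a p of 1.29e-08, and had 4 CTCF tags and no IgG tag with 89.7% unique positions. The last pair lies in the duplicated unit and has the same 29 bases in both copies. Only 15.0% and 15.3% of the positions around it are unique, and 4 CTCF tags were found at each.

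**Figure D5:**
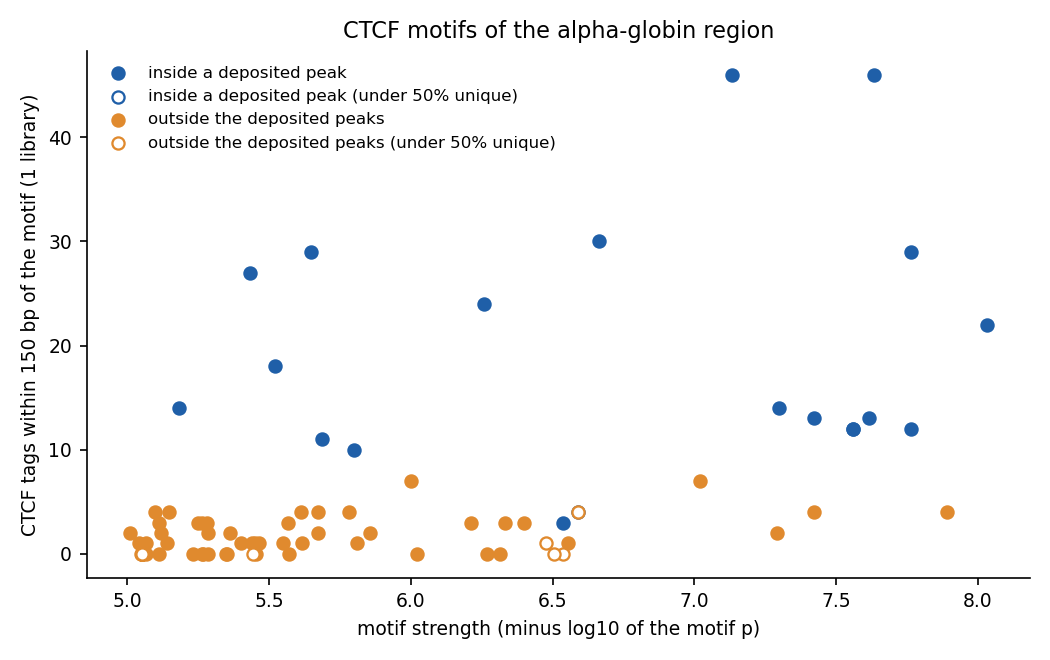
CTCF tags within 150 bp of each of the 81 motifs of the region (y axis, tag count in 1 library) against motif strength (x axis, minus log10 of the motif p), for motifs inside (blue) and outside (orange) the deposited peaks, with open symbols where under 50% of positions are unique. Motifs outside the peaks stay at 0 to 7 tags along the whole range of strength, and those in peaks reach 46. The peaks were called from the same tags, so this split is a description.

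The starts of other erythroid genes were read in the same way from a fixed list. Of 31 genes found of 32 listed (erythroid transcription factors, haem synthesis enzymes, red cell surface and membrane proteins), 1 had a CTCF summit within 1 kb and 2 were called by tags, against 7.91% and 10.4% of all starts, so that neither count stands above the background. Gfi1b, a transcription factor of red cell and platelet precursors, had its nearest summit 972 bp away, with 25 CTCF and 2 IgG tags (11.9, 2.97 to 104; adjusted p = 0.000195, exact binomial test). The other called start was Urod, an enzyme of haem synthesis, with 16 and 3 tags (5.08, 1.45 to 27.2; adjusted p = 0.0439, exact binomial test) and no summit within 1 kb. Of the 10 globin genes found, Hbq1b and Hbq1a were the 2 with a summit within 1 kb, and the 5 beta-like genes had 0 to 8 CTCF tags and 2 to 11 IgG tags.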

How the data were processed

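The libraries were sequenced on an Illumina Genome Analyzer II. The authors deposited 1 line per aligned 35 bp tag with a count of 1, unnormalized, and no position and strand is repeated in either library. They also deposited peaks called with MACS (1.4, per the submitters' processing notes) against the IgG library, with a score of minus 10 times log10 p (lowest 50), and summits with the signal, the pileup height in tags. The build is mm9; the aligner is not given in the sources used here.

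Each tag was counted 92 bp downstream of its 5′ end (fragment length 185 bp, from the 1000 highest scoring peaks), and libraries were scaled by total tags. This length was estimated from the tags and is shorter than the 500 bp given for the sheared chromatin. Ratios carry exact 95% intervals. Gene starts and 1 kb windows were compared between the libraries, not between conditions, by a two-sided exact binomial test, and p-values were adjusted over all starts or windows (Benjamini-Hochberg). Positions were called unique where the 35-base word occurs once on either strand of the genome, by exact match. The shares count words that start inside a window, whereas tags are counted after the move of 92 bp. In narrow windows the share therefore describes only roughly where the counted tags could be placed. The motif matrix came from 192 sequences that the study listed as CTCF motif matches at sites of the cohesin subunit RAD21 in ESCs. It was built with a pseudocount of 1, base frequencies of 0.29 (A, T) and 0.21 (C, G), and exact p-values. Copies were aligned with blastn 2.17.0. scipy 1.17.1, numba 0.67.0, numpy 2.4.6 and matplotlib 3.10.9 were used under Python 3.11.15, and scripts were tested on simulated data. Intervals, and the floor of 3 counts used where IgG had none, cover counting error only. Lower limits printed beside fold values against the floor belong to the exact interval on the counts without the floor.

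The rule for the members used names and positions and no tags, but members, gene lists and tests were chosen with earlier results of these data known. Sites were named by rule: all genes of the region, the 10 peaks with the highest score and the nearest peaks on each side of the genes in full, and erythroid genes with a summit within 1 kb. Urod, the stretches between sites and the motifs with the shared core were chosen after their values were seen.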

Additional observations from a re-analysis of the deposited data

How the results depend on the processing

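Over 24 results and 82 alternative settings, 61 values kept their direction and their side of the threshold or stayed within the stated spread, and 7 turned direction, none of them past the threshold in either setting. With 500 bp on each side of the start, the summed ratio of the members turned to 2.14, that of Hba-x to 2.22 and that of Nprl3 to 4.76; with 2 kb, Hba-a2 turned to 1.11, Mpg to 0.816 and Sh3pxd2b to 0.952. The ratio of copy 2 to copy 1 at the theta genes was 1.37 (p = 0.0927, exact binomial test) with 2 kb on each side of the motif and turned to 0.945 within the aligned blocks, an alternative chosen after seeing the data. Starts without an IgG tag within 500 bp gave no ratio there, among them Hba-a1 with 2 CTCF tags. The starts of Hba-x, Hba-a1 and Hba-a2 were called under none of the windows, scalings and tag positions tried. With 500 bp on each side of a start, 2 of the other 8 genes were called in place of 3, and with 2 kb 5 were. The tag levels from Hba-x to Hba-a2 were 7.05 (CTCF) and 3.68 (IgG) per kb of unique positions. At a score of at least 100, 11 peaks remained of 18. The ratio at the summits was 8.82 with 500 bp on each side and 8.88 over whole peaks. With 50 bp on each side, 33.3% of the summits had a motif. Motifs outside the peaks numbered 250 at a p of 1e-04 and 15 at 1e-06. Erythroid starts with a summit numbered 0 within 500 bp, 9 within 5 kb and 0 with scores of at least 100. Wider windows take in more sequence, and thresholds on scores and motifs act by construction. No paired analysis was possible because each antibody has 1 library. At this depth, starts with few tags have wide intervals, and those of Hba-a1 and Hba-a2 rest on a small share of unique positions.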
